A study of Drosophila melanogaster with 8 samples.

Results

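The colour of the fly eye is made by 2 families of pigment; the genes described here are 10 enzymes and transporters of these pigments, measured in heads of Drosophila melanogaster. The genes were taken by symbol as a fixed set of pathway enzymes and transporters (w, st, bw, v, cn, se, pr, ry, Pu and kar), and all 10 were found among the 13781 gene symbols counted. The knockdown flies were Actin-gal4/+; UAS-rowRNAi1/+ (row_RNAi1, 2 libraries) and Actin-gal4/+; UAS-rowRNAi2/+ (row_RNAi2, 3 libraries), and the controls were Actin-gal4/+ (3 libraries). Gal4, a yeast activator, was driven in all groups by the promoter of Actin, a gene used in most cells, and in the RNAi lines it switches on a hairpin RNA against row, which encodes a zinc-finger protein. The control genotype names no UAS insertion, so each line may differ from the control in genetic background as well as in the hairpin. Flies of all groups were kept at 25 °C with 12 h of light and 12 h of dark, and were collected on dry ice after 3 days of recovery from CO2. The sources used here do not give sex, age or the number of heads per library. They do not say whether libraries of 1 group came from separately collected flies, so the p-values measure a spread that may be technical.

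The brown ommochromes are made from tryptophan: v encodes tryptophan 2,3-dioxygenase, which opens the pathway, and cn encodes kynurenine 3-monooxygenase further down. The red drosopterins are pteridines made from GTP: Pu encodes GTP cyclohydrolase I, pr encodes 6-pyruvoyltetrahydropterin synthase, and se encodes an omega-class glutathione transferase that makes the pyrimidodiazepine precursor of drosopterin. The same early pteridine steps supply tetrahydrobiopterin, the cofactor of the aromatic amino acid hydroxylases. The ABC transporter genes w, st and bw encode half-transporters of pigment cells and photoreceptors: White pairs with Scarlet to load ommochrome precursors into granules and with Brown to load pteridine precursors. The genes w, v and ry have also long served as eye-colour markers of transgenes. The labels do not name the markers of the Actin-gal4 and UAS insertions, so reads of an endogenous copy and of a transgene cannot be told apart for these genes.

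Levels are CPM, the counts of a gene scaled to a common library total, on TMM-scaled library sizes, from 3′ RNA-seq that reads the ends of transcripts, and levels are compared for each gene across groups and not between genes. The libraries held 17952015 and 18046699 counts in row_RNAi1, 6230666 to 11212213 in row_RNAi2, and 7015874 to 9437287 in controls. Of the 10 genes, 9 passed the filter on low counts, and cn did not. Calls required an adjusted p under 0.05 from edgeR's quasi-likelihood test, with Benjamini-Hochberg adjustment over all 9442 genes tested (hereafter the edgeR adjusted p). Both lines were set against the same 3 control libraries. The targeted gene row averaged 5.08 ± 1.21 CPM in row_RNAi1 (SD, n = 2), 7.43 ± 1.27 CPM in row_RNAi2 (SD, n = 3) and 13.7 ± 1.49 CPM in controls (SD, n = 3), and its libraries did not overlap between either line and the control.

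The clearest change was in se, whose transcript was far lower in both lines. In row_RNAi1 4 of 9 tested pigment genes fell (se, bw, pr and st) and 2 rose (ry and v), beside 21.2% of all genes called in that comparison (11.2% higher and 10% lower). In row_RNAi2 1 fell (se) and 1 rose (w), beside 10.8% of all genes called (5.49% higher and 5.34% lower). The libraries of row_RNAi1 and control did not overlap for any of the 9 genes, an arrangement seen in 47.7% of all genes (3 of the 9 above control, against 24% of all genes, and 6 below, against 23.7%). Those of row_RNAi2 and control did not overlap for 5 of the 9, against 24.4% of all genes (2 above, against 12%, and 3 below, against 12.4%). All 5 knockdown libraries were on 1 side of all 3 controls for 3 of the 9, against 17.2% of all genes: ry was above, against 8.9%, and se and bw were below, against 8.29%. The median log2 fold change of the 9 genes was -0.25 in row_RNAi1 and -0.03 in row_RNAi2, beside -0.01 for all genes in each line. The plot of levels by library shows all 9.

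**Figure D1:**
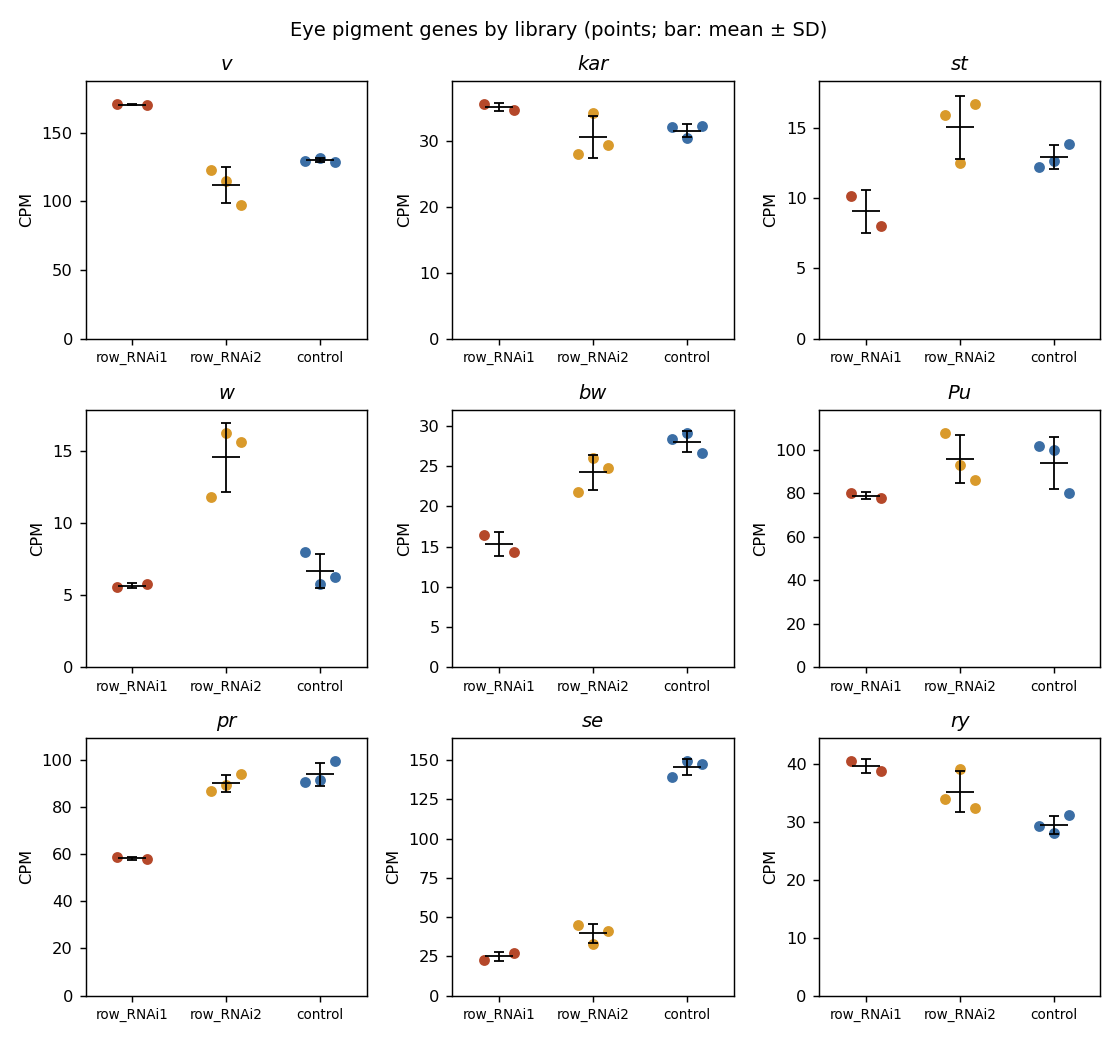
Level of each eye pigment gene in CPM (y axis, from 0) in every library of row_RNAi1, row_RNAi2 and control (x axis); points are libraries and bars are the mean ± SD. The 5 knockdown libraries of se lie between 23.004 and 44.9 CPM, below all controls, and the 3 row_RNAi2 libraries of w lie between 11.8 and 16.3 CPM, above all other libraries.

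In the ommochrome branch, the first enzyme moved in 1 line only by the test against control. The gene v stood at 170.5 and 170.1 CPM in row_RNAi1 (replicates 1 and 2), at 123.01, 114.8 and 97.4 CPM in row_RNAi2 (replicates 1 to 3), and at 129.2, 131.6 and 128.7 CPM in controls. Both row_RNAi1 libraries were thus above, and all row_RNAi2 libraries below, a narrow control range. The log2 fold change of v was 0.39 in row_RNAi1 (SE 0.09, edgeR adjusted p = 0.00366) and -0.22 in row_RNAi2 (SE 0.08, edgeR adjusted p = 0.112). Without row_RNAi2 replicate 1, the row_RNAi2 value was -0.29 and was called (edgeR adjusted p = 0.0326). The lines differed from each other in v by -0.61 (row_RNAi2 minus row_RNAi1, SE 0.09, edgeR adjusted p = 0.000143).

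The gene kar, which encodes a member of the monocarboxylate transporter family and is named for an eye-colour mutant, was not called in either line. It averaged 35.1 ± 0.611 CPM in row_RNAi1 (SD, n = 2), 30.6 ± 3.23 CPM in row_RNAi2 (SD, n = 3) and 31.6 ± 1.03 CPM in controls (SD, n = 3). The 95% confidence interval of its log2 fold change ran from -0.03 to 0.34 in row_RNAi1 and from -0.21 to 0.15 in row_RNAi2.

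Reads of cn were almost absent in every group. It had 0 counts in both row_RNAi1 libraries, 0 in all 3 row_RNAi2 libraries, and 2, 0 and 0 counts in controls. A count of 0 allows up to 0.0887 CPM over the row_RNAi1 libraries and 0.106 CPM over the row_RNAi2 libraries (3 counts per group, counting error only). These limits hold for reads as counted, not for the transcript itself. No fold change is given, and a difference was not detectable in these counts. In the RefSeq annotation of Release 6, an antisense RNA gene, CR45108, covers 76.4% of cn on the other strand. CR45108 itself had 10 counts in row_RNAi1, 2 in row_RNAi2 and 0 in controls. The sources used here do not say how the deposited counting treated strand or overlapping genes.

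The 3 ABC transporter genes did not move together. Transcripts of w, which encodes the shared partner, were the ones of the set that rose in row_RNAi2. Whether these reads came from the endogenous gene or from a transgene marker cannot be told apart. The gene w stood at 5.57 and 5.78 CPM in row_RNAi1, at 11.8, 16.3 and 15.7 CPM in row_RNAi2, and at 8.01, 5.79 and 6.25 CPM in controls. All row_RNAi2 libraries lay above every other library, and the row_RNAi1 libraries lay just under the lowest control. The log2 fold change was 1.16 in row_RNAi2 (SE 0.17, edgeR adjusted p = 9.25e-05), or 2.24-fold, and -0.22 in row_RNAi1 (SE 0.19, edgeR adjusted p = 0.482). The counts behind it were low, with 192 in row_RNAi1, 428 in row_RNAi2 and 173 in controls.

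The partner of White in pteridine transport, bw, was lower in row_RNAi1. It stood at 16.4 and 14.3 CPM in row_RNAi1, at 21.8, 26.1 and 24.8 CPM in row_RNAi2, and at 28.4, 29.1 and 26.7 CPM in controls. All 5 knockdown libraries lay below all controls, with those of row_RNAi1 lowest. The log2 fold change was -0.87 in row_RNAi1 (SE 0.10, edgeR adjusted p = 6.66e-06) and -0.20 in row_RNAi2 (SE 0.09, edgeR adjusted p = 0.245). In the Release 6 annotation the gene mi overlaps bw by 456 bases on the other strand, at the 3′ ends of both; mi was not called in either line. Its log2 fold change was 0.10 in row_RNAi1 and 0.25 in row_RNAi2.

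The partner of White in ommochrome transport, st, was also lower in row_RNAi1, by less. Its levels were 10.1 and 7.97 CPM in row_RNAi1, 15.9, 12.5 and 16.6 CPM in row_RNAi2, and 12.2, 12.6 and 13.8 CPM in controls. The row_RNAi1 libraries lay below all controls, while the row_RNAi2 libraries overlapped them. In row_RNAi1 the log2 fold change was -0.51 (SE 0.16, edgeR adjusted p = 0.0246). This call was lost without control replicate 3 (-0.45, edgeR adjusted p = 0.0864) and without row_RNAi1 replicate 2 (-0.35, edgeR adjusted p = 0.275). In row_RNAi2 it was 0.21 (SE 0.14, edgeR adjusted p = 0.458).

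Of 2 other ABC transporter genes of the same subfamily, Atet and E23, neither was called in either line. Their log2 fold changes were -0.17 and -0.61 in row_RNAi1 and -0.08 and 0.07 in row_RNAi2.

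**Figure D2:**
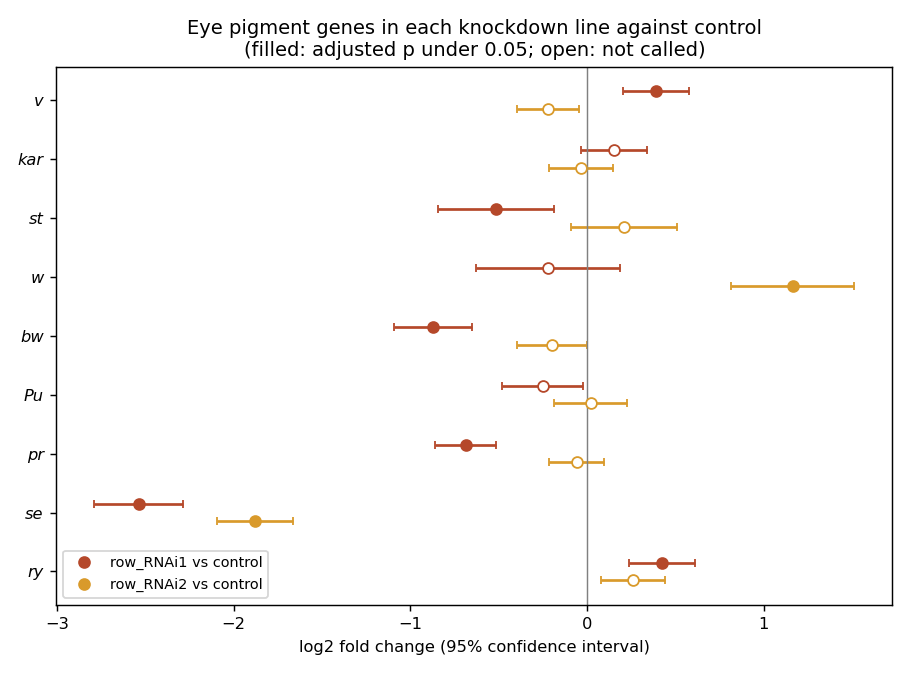
Log2 fold change (x axis) of each tested eye pigment gene (y axis) in row_RNAi1 and row_RNAi2, each against control; points are the fitted values, bars the 95% confidence interval, and filled points have an edgeR adjusted p under 0.05. The gene se is at -2.54 in row_RNAi1 and -1.88 in row_RNAi2, while w is called in row_RNAi2 alone and bw, pr, st, v and ry in row_RNAi1 alone.

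In the pteridine branch, the entry enzyme gene Pu was not called, the second enzyme gene pr fell in row_RNAi1, and the drosopterin enzyme gene se fell in both lines. The entry gene Pu stood at 80.03 and 77.8 CPM in row_RNAi1, at 107.8, 92.9 and 86.3 CPM in row_RNAi2, and at 101.7, 99.9 and 80.3 CPM in controls. The lowest control nearly touched the row_RNAi1 libraries, and the row_RNAi2 libraries spread across the control range. Its log2 fold change was -0.25 in row_RNAi1 (SE 0.11, edgeR adjusted p = 0.121) and 0.02 in row_RNAi2 (SE 0.10, edgeR adjusted p = 0.945). Without control replicate 3, the row_RNAi1 value was -0.34 and was called (edgeR adjusted p = 0.0122), as it was with the replicate number as a block (-0.33, edgeR adjusted p = 0.00981). In the Release 6 annotation the whole of CG4286, 883 bases, lies within Pu on the other strand.

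The gene pr stood at 58.8 and 57.9 CPM in row_RNAi1, at 86.9, 89.3 and 93.8 CPM in row_RNAi2, and at 90.6, 91.6 and 99.3 CPM in controls. Only the row_RNAi1 libraries were set apart, at 62.2% of the control mean. Its log2 fold change was -0.69 in row_RNAi1 (SE 0.08, edgeR adjusted p = 6.55e-06) and -0.06 in row_RNAi2 (SE 0.07, edgeR adjusted p = 0.727).

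The gene se stood at 23.004 and 27.04 CPM in row_RNAi1, at 44.9, 33.1 and 41.5 CPM in row_RNAi2, and at 139.5, 149.2 and 147.5 CPM in controls. The highest knockdown library was thus far below the lowest control, and the 2 lines did not overlap each other. Relative to the control mean, se kept 17.2% in row_RNAi1 and 27.4% in row_RNAi2. In row_RNAi1 the log2 fold change was -2.54 (SE 0.12, edgeR adjusted p = 6.88e-11), or 5.81-fold lower. In row_RNAi2 it was -1.88 (SE 0.10, edgeR adjusted p = 1.50e-09), or 3.67-fold lower. By p-value se ranked 27th of 9442 genes in row_RNAi1 and 12th in row_RNAi2. In bulk heads, fewer cells of a type and less RNA per cell cannot be told apart.

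The xanthine dehydrogenase gene ry, whose enzyme makes the colourless pteridine isoxanthopterin and also acts in purine breakdown, was higher in row_RNAi1. It stood at 40.4 and 38.7 CPM in row_RNAi1, at 33.9, 39.1 and 32.4 CPM in row_RNAi2, and at 29.2, 28.0 and 31.1 CPM in controls. All 5 knockdown libraries lay above all controls. For ry the log2 fold change was 0.43 in row_RNAi1 (SE 0.09, edgeR adjusted p = 0.00185) and 0.26 in row_RNAi2 (SE 0.09, edgeR adjusted p = 0.0663). Without row_RNAi2 replicate 3 the row_RNAi2 value was 0.32 and was called (edgeR adjusted p = 0.0302).

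Next to se lie 3 other omega-class glutathione transferase genes, and they did not follow it as a block. These neighbours were looked at after the values of se were seen. On the left, GstO3 averaged 60.7 ± 2.45 CPM in row_RNAi1 (SD, n = 2), 58.5 ± 6.12 CPM in row_RNAi2 (SD, n = 3) and 62.0 ± 2.51 CPM in controls (SD, n = 3). It was not called in either line, with log2 fold changes of -0.03 and -0.07.

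On the right, GstO2 rose in both lines. It stood at 144.7 and 137.5 CPM in row_RNAi1, at 123.5, 139.2 and 128.3 CPM in row_RNAi2, and at 81.03, 91.4 and 89.6 CPM in controls. Every knockdown library exceeded every control, with log2 fold changes of 0.69 in row_RNAi1 (SE 0.08, edgeR adjusted p = 7.36e-06) and 0.58 in row_RNAi2 (SE 0.08, edgeR adjusted p = 4.65e-05). Beyond it, GstO1 fell in both lines. It stood at 3.995 and 3.35 CPM in row_RNAi1, at 4.26, 5.70 and 4.54 CPM in row_RNAi2, and at 13.0, 12.5 and 9.71 CPM in controls. The groups did not overlap, with log2 fold changes of -1.67 in row_RNAi1 (SE 0.20, edgeR adjusted p = 5.77e-06) and -1.25 in row_RNAi2 (SE 0.18, edgeR adjusted p = 0.000129).

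In the Release 6 annotation se and GstO2 lie on opposite strands and overlap by 61 bases at their 3′ ends, where 3′ RNA-seq reads fall. Without stated use of strand, reads in this overlap cannot be assigned to either gene. The summed level of the 2 genes was 166 ± 2.24 CPM in row_RNAi1 (SD, n = 2), 170.2 ± 1.97 CPM in row_RNAi2 (SD, n = 3) and 233 ± 10.7 CPM in controls (SD, n = 3). The sum was lower in both lines than in controls, with no overlap between libraries (164.5 to 167.7, 168.4 to 172.3 and 220.5 to 240.6 CPM). Among single genes, 8.29% had all 5 knockdown libraries below all 3 controls. The part of read assignment in the values of se and GstO2 was not tested. As members of 1 family, these genes may also share reads.

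**Figure D3:**
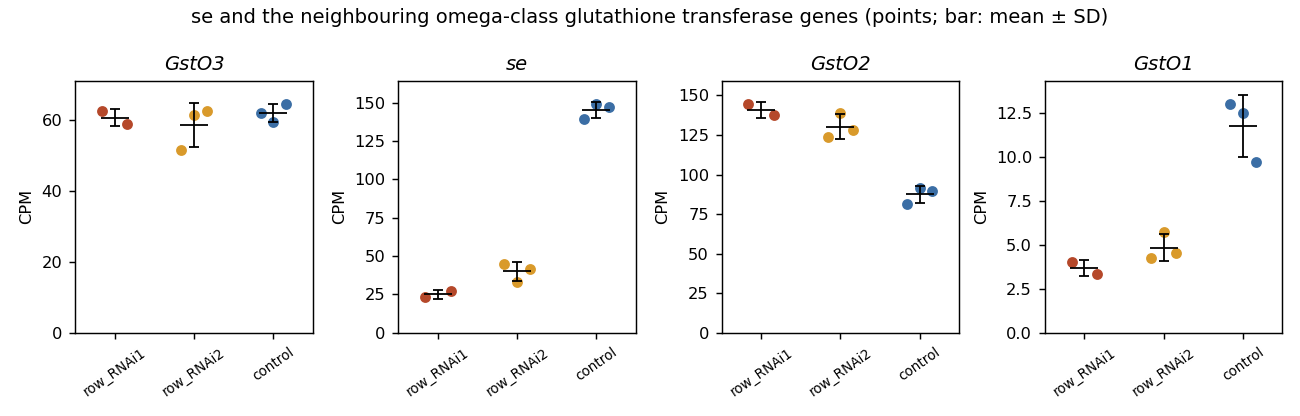
Level in CPM (y axis, from 0) of se and its 3 neighbouring omega-class glutathione transferase genes, in the order in which they lie, in every library of row_RNAi1, row_RNAi2 and control (x axis); points are libraries and bars are the mean ± SD. GstO3 overlaps across groups, GstO2 lies between 123.5 and 144.7 CPM in knockdown libraries against 81.03 to 91.4 CPM in controls, and se and GstO1 lie below their controls.

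Immediate neighbours were read for all 10 genes. Of the 20 nearest protein-coding neighbours of the 10 genes (1 on each side, in RefSeq order), 14 were tested. In row_RNAi1 2 of the 14 rose (GstO2, and neb beside pr) and 1 fell (CG2145 beside v), and in row_RNAi2 1 rose (GstO2), beside the 21.2% and 10.8% of all genes called. The gene neb, which encodes a kinesin-like protein, had a log2 fold change of 1.44 in row_RNAi1 (SE 0.42, edgeR adjusted p = 0.0201) from only 74 counts there and 21 in controls.

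The lines differed from each other for most of the set. In the direct test of row_RNAi2 against row_RNAi1, 5 of 9 genes were higher in row_RNAi2 (w, st, bw, se and pr) and 1 was lower (v), beside 11.3% of all genes called (4.98% higher and 6.33% lower). The libraries of the lines did not overlap for 8 of the 9, against 39% of all genes (6 higher, against 18.2%, and 2 lower, against 20.8%). The differences of the 5 were 1.39 for w and 0.63 to 0.72 for the others, on the log2 scale. For st this call was lost without row_RNAi1 replicate 2 (0.56, edgeR adjusted p = 0.0978). The 95% confidence interval of the difference ran from -0.35 to 0.02 for ry, from 0.04 to 0.50 for Pu and from -0.37 to -0.004 for kar, none of which was called. Averaged over both lines, 5 of 9 genes were called against control, beside 17.8% of all genes (9.24% higher and 8.56% lower): se, bw and pr were lower, and ry and w higher. For w that average combines a called rise in row_RNAi2 with an uncalled -0.22 in row_RNAi1. The averaged call of w was lost in 10 of 15 alternatives (highest edgeR adjusted p = 0.341, with all knockdown libraries as 1 group).

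Other genes of the ommochrome pathway changed in part. Of 4 genes, the granule gene Rab32 among them, 2 fell and 1 rose in row_RNAi1, beside 10% and 11.2% of all genes. In row_RNAi2 1 fell and 1 rose, beside 5.34% and 5.49%. The gene CG6950 (Kyat), which encodes a kynurenine aminotransferase that draws kynurenine off the pigment route, rose in both lines. It stood at 127.7 and 139.7 CPM in row_RNAi1, at 85.3, 72.7 and 66.3 CPM in row_RNAi2, and at 51.4, 51.3 and 60.7 CPM in controls. All knockdown libraries exceeded all controls, with log2 fold changes of 1.30 in row_RNAi1 (SE 0.10, edgeR adjusted p = 5.35e-08) and 0.45 in row_RNAi2 (SE 0.10, edgeR adjusted p = 0.00506). The kynurenine formamidase gene KFase, which acts just after v, was not called, with log2 fold changes of -0.01 and 0.06.

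The gene cardinal (cd), which encodes a peroxidase-related protein of the last ommochrome step, fell in both lines from low counts. It had 25 and 45 counts in row_RNAi1, 8, 24 and 28 in row_RNAi2, and 35, 40 and 35 in controls, and its levels averaged 2.06 ± 0.769, 1.99 ± 0.61 and 4.21 ± 0.352 CPM in these groups (SD, n = 2, 3 and 3). Its log2 fold changes were -1.02 in row_RNAi1 (SE 0.30, edgeR adjusted p = 0.0209) and -1.01 in row_RNAi2 (SE 0.29, edgeR adjusted p = 0.0358). The row_RNAi1 call was lost without row_RNAi1 replicate 1 (edgeR adjusted p = 0.268) or control replicate 1 (0.0667). The row_RNAi2 call was lost without control replicate 1 (edgeR adjusted p = 0.113), 2 (0.0814) or 3 (0.0632) and without row_RNAi2 replicate 1 (0.0995) or 2 (0.0904).

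Rab32, the gene lightoid (ltd) of a small GTPase of pigment granule formation, fell in row_RNAi1. It averaged 118.8 ± 3.11 CPM in row_RNAi1 (SD, n = 2), 189.7 ± 6.14 CPM in row_RNAi2 (SD, n = 3) and 205 ± 13.4 CPM in controls (SD, n = 3). For Rab32 the log2 fold change was -0.79 in row_RNAi1 (SE 0.08, edgeR adjusted p = 1.06e-06) and -0.12 in row_RNAi2 (SE 0.07, edgeR adjusted p = 0.403).

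Of 6 other pteridine genes, 2 rose and 0 fell in row_RNAi1, beside 11.2% and 10% of all genes. In row_RNAi2 1 rose and 0 fell, beside 5.49% and 5.34%. The dihydropteridine reductase gene Dhpr, which recycles the biopterin cofactor, had log2 fold changes of 0.38 in row_RNAi1 (SE 0.08, edgeR adjusted p = 0.00263) and 0.25 in row_RNAi2 (SE 0.08, edgeR adjusted p = 0.0478). The row_RNAi2 call was lost in 8 of 15 alternatives, 6 of which left out 1 library (edgeR adjusted p up to 0.226, without control replicate 2). The dihydropterin deaminase gene DhpD rose in row_RNAi1, to 61.3 ± 4.86 CPM (SD, n = 2) against 36.7 ± 4.91 CPM in controls (SD, n = 3), a log2 fold change of 0.75 (SE 0.12, edgeR adjusted p = 0.000111). Its row_RNAi2 value was 0.22 (edgeR adjusted p = 0.296). The genes cl, whose product acts with that of se in drosopterin synthesis, Sptr (sepiapterin reductase), Pcd (pterin carbinolamine dehydratase) and Hn (phenylalanine hydroxylase) were not called in either line. Their log2 fold changes ran from -0.05 to 0.15 in row_RNAi1 and from -0.14 to 0.13 in row_RNAi2.

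The enzyme encoded by ry needs a sulfurated molybdenum cofactor. Of 4 tested genes for that cofactor, 2 rose in row_RNAi1, beside 11.2% of all genes. In row_RNAi2 0 were called by edgeR, beside 10.8% of all genes at the same adjusted threshold. At an unadjusted p under 0.05 the count was also 0. The sulfurase gene mal had a log2 fold change of 0.59 in row_RNAi1 (SE 0.15, edgeR adjusted p = 0.00816), lost without row_RNAi1 replicate 1 (edgeR adjusted p = 0.120). The synthesis gene Mocs1 had 0.39 (SE 0.13, edgeR adjusted p = 0.0491), lost in 9 of 15 alternatives (edgeR adjusted p up to 0.362, without row_RNAi1 replicate 2). The urate oxidase gene Uro, of the same purine route, had 1 count over all 8 libraries.

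Other genes that carry cargo to pigment granules were mostly not called. Rab32, which fell in row_RNAi1, was counted above with the ommochrome genes and is not among them. Of 12 tested genes, 1 rose and 0 fell in row_RNAi1, beside 11.2% and 10% of all genes. In row_RNAi2 0 were called by edgeR, beside 10.8% of all genes at the same adjusted threshold. At an unadjusted p under 0.05 there were 2, a looser threshold that the 10.8% does not describe. For scale, bw, with an unadjusted edgeR p of 0.0521 in row_RNAi2, ranked 2011th of 9442 genes by p. The 12 include the AP-3 adaptor genes g, rb, cm and or and the HOPS genes car, dor, lt and Vps16A. The median log2 fold change was -0.02 in row_RNAi1 and -0.12 in row_RNAi2. The riser was CG13646 (mah), the eye-colour gene mahogany, with 53 and 81 counts in row_RNAi1, 5, 8 and 10 in row_RNAi2, and 4, 7 and 4 in controls. Its log2 fold change was 2.77 in row_RNAi1 (SE 0.37, edgeR adjusted p = 2.58e-05) and 0.50 in row_RNAi2 (SE 0.48, edgeR adjusted p = 0.644). The log2 fold changes of car, lt and p were -0.42, -0.27 and -0.11 in row_RNAi1 and -0.36, -0.20 and -0.21 in row_RNAi2.

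Among 4 genes of enzymes that use tetrahydrobiopterin, 1 fell in row_RNAi1, beside 10% of all genes. In row_RNAi2 0 were called by edgeR, beside 10.8% of all genes at the same adjusted threshold. At an unadjusted p under 0.05 there was 1, a looser threshold that the 10.8% does not describe. Tyrosine hydroxylase (ple) had a log2 fold change of -0.38 in row_RNAi1 (SE 0.09, edgeR adjusted p = 0.00335), lost without row_RNAi1 replicate 1 (edgeR adjusted p = 0.0536), and -0.22 in row_RNAi2 (edgeR adjusted p = 0.108). The tryptophan hydroxylase gene Trh and the nitric oxide synthase gene Nos were not called, with 0.10 and -0.06 in row_RNAi1 and 0.17 and 0.24 in row_RNAi2. Pooled over the 5 lists, 6 of 29 tested genes rose and 3 fell in row_RNAi1, and 2 rose and 1 fell in row_RNAi2, beside 21.2% and 10.8% of all genes called.

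**Figure D4:**
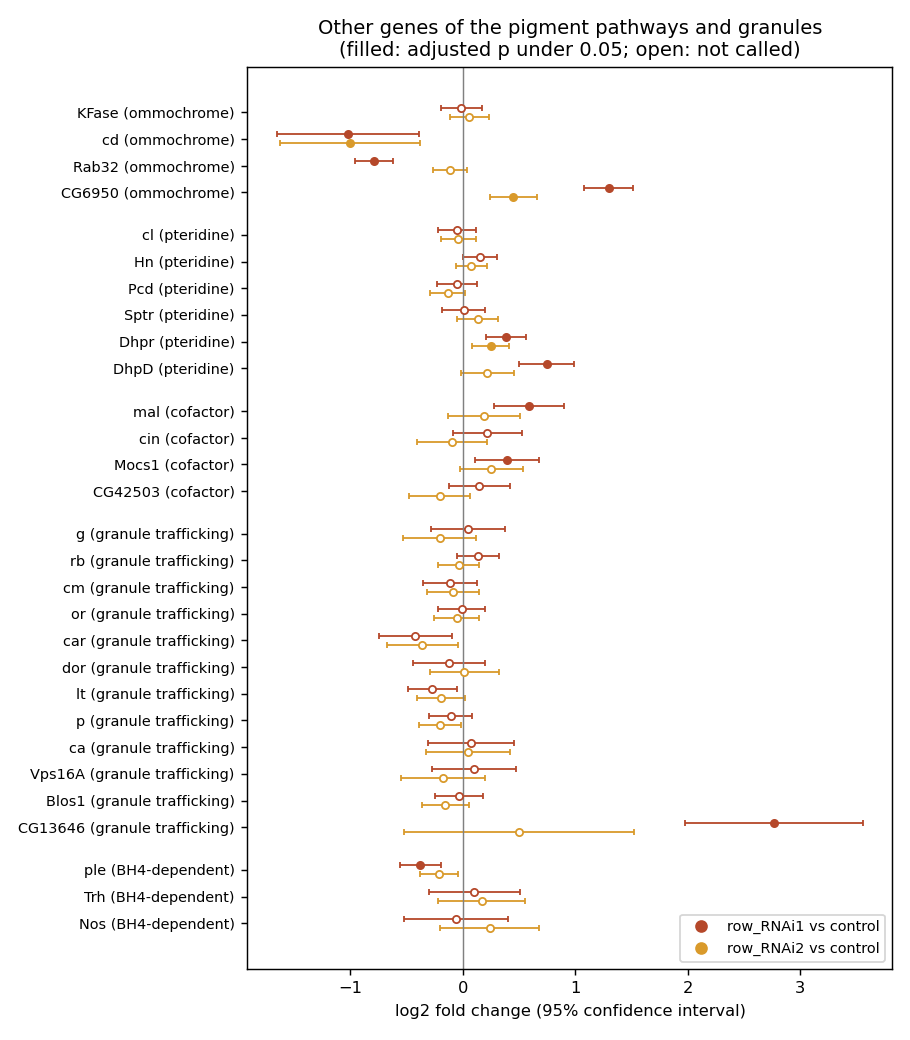
Log2 fold change (x axis) of 29 further genes of the pigment pathways and granules (y axis, grouped by role) in row_RNAi1 and row_RNAi2, each against control; bars are the 95% confidence interval and filled points have an adjusted p under 0.05. CG6950 lies above 0 and cd below 0 in both lines, while most granule trafficking genes lie close to 0. Rab32, a granule gene that fell in row_RNAi1, is grouped with the ommochrome genes.

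Among 4 genes in use as visible transgene markers (w, v, ry and y), of which 3 are members described above, 3 rose in row_RNAi1 (y, v and ry), beside 11.2% of all genes higher. In row_RNAi2 1 rose (w), beside 5.49% of all genes. No other member of the pigment set was called higher against control in either line. Reads of endogenous and transgene copies of these markers cannot be told apart. The lines differed from each other in w, v and y by the direct test, while for ry that test made no call. The gene yellow (y), which acts in black cuticle pigment, had 81 and 82 counts in row_RNAi1, 10, 10 and 7 in row_RNAi2, and 7, 14 and 7 in controls. Its log2 fold change was 2.17 in row_RNAi1 (SE 0.34, edgeR adjusted p = 0.000124) and -0.14 in row_RNAi2 (SE 0.44, edgeR adjusted p = 0.917).

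Among 18 markers of eye cells (photoreceptor, pigment cell and corneal lens), 8 fell and 2 rose in row_RNAi1, beside 10% of all genes lower and 11.2% higher. In row_RNAi2 2 fell and 1 rose, beside 5.34% and 5.49% of all genes. The summed level of 13 photoreceptor genes was 25200 to 25850 CPM in row_RNAi1, 26370 to 28840 CPM in row_RNAi2 and 28280 to 28590 CPM in controls. In row_RNAi1 5 of the 13 fell (Rh3, Rh5, trpl, norpA and Arr1). There 1 rose, the rhodopsin gene Rh6 (log2 fold change 0.36, edgeR adjusted p = 0.00402), and in row_RNAi2 1 fell (Rh5). The rhodopsin gene Rh5 had log2 fold changes of -1.62 in row_RNAi1 (edgeR adjusted p = 2.55e-10) and -0.54 in row_RNAi2 (edgeR adjusted p = 4.33e-05). All 18 eye markers were detected in each group, as the head label implies.

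Of 2 pigment cell genes, both fell in row_RNAi1 and 1, rdhB, in row_RNAi2, beside 10% and 5.34% of all genes lower. Pdh, a dehydrogenase abundant in pigment cells, averaged 1732 ± 40.6 CPM in row_RNAi1 (SD, n = 2), 2617 ± 198 CPM in row_RNAi2 (SD, n = 3) and 2697 ± 65.03 CPM in controls (SD, n = 3), with log2 fold changes of -0.64 in row_RNAi1 (edgeR adjusted p = 4.64e-06) and -0.04 in row_RNAi2 (edgeR adjusted p = 0.789). The retinol dehydrogenase gene rdhB averaged 29.6 ± 2.25 CPM in row_RNAi1 (SD, n = 2), 80.7 ± 4.16 CPM in row_RNAi2 (SD, n = 3) and 184 ± 13.9 CPM in controls (SD, n = 3), with log2 fold changes of -2.64 in row_RNAi1 (edgeR adjusted p = 7.20e-12) and -1.19 in row_RNAi2 (edgeR adjusted p = 1.44e-08). Their part in the values of bw, pr, st and se was not tested.

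The 3 corneal lens genes did not move together. Cpr72Ec, a cuticle protein gene, rose in both lines, with log2 fold changes of 1.47 in row_RNAi1 (edgeR adjusted p = 2.24e-10) and 0.88 in row_RNAi2 (edgeR adjusted p = 9.70e-08). The lens protein gene retinin fell in row_RNAi1, with a log2 fold change of -0.65 (edgeR adjusted p = 8.91e-07), against 0.12 in row_RNAi2 (edgeR adjusted p = 0.253). Crys was not called in either line. Their summed level, most of it retinin, was 4982 to 5299 CPM in row_RNAi1, 7388 to 7588 CPM in row_RNAi2 and 6405 to 6755 CPM in controls.

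Markers of other tissues also differed in part. Of 6 tested fat body genes, 2 rose and 1 fell in row_RNAi1, beside 11.2% and 10% of all genes. In row_RNAi2 3 rose and 1 fell, beside 5.49% and 5.34%. The yolk protein gene Yp3 and the apolipoprotein gene Rfabg rose in both lines, with log2 fold changes of 0.75 and 0.69 in row_RNAi1 (edgeR adjusted p = 0.000259 and 5.46e-05) and 0.52 and 0.57 in row_RNAi2 (edgeR adjusted p = 0.00516 and 0.000313). The lipid droplet gene Lsd-1 fell in both, by 1.17 in row_RNAi1 and 0.81 in row_RNAi2 on the log2 scale (edgeR adjusted p = 2.11e-07 and 8.69e-06). The larval serum protein gene Lsp2 rose in row_RNAi2 by 2.23 (edgeR adjusted p = 2.82e-06). Fbp1, which did not pass the filter on low counts, had 0 counts in all row_RNAi2 libraries and 0, 0 and 2 in controls. In row_RNAi1 it had 5 and 23. The yolk protein genes Yp1 and Yp2 were not called in either line. Their log2 fold changes were 0.04 and -0.23 in row_RNAi1 and 0.17 and 0.05 in row_RNAi2. The summed level, most of it Yp1, Yp2 and Yp3, holds genes that moved in opposite directions. It was 111300 to 138800 CPM in row_RNAi1, 117800 to 149200 CPM in row_RNAi2 and 86700 to 122100 CPM in controls.

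Of 3 tested hemocyte genes, 2 rose in row_RNAi1 (Hml and NimC1, 0.45 and 0.71 on the log2 scale) and 1 fell in row_RNAi2 (Hml, -0.32). Of 4 muscle genes, 2 rose in row_RNAi1 (Mhc and up, 0.24 and 0.41). Of 4 glial genes, 1 fell in row_RNAi1 (Gs2, -0.41). Of 4 neuronal genes, 0 were called by edgeR in either line (2 at an unadjusted p under 0.05 in row_RNAi1 and 0 in row_RNAi2). The counts of called genes stand beside 11.2% of all genes higher and 10% lower in row_RNAi1, and 5.49% and 5.34% in row_RNAi2. These shares do not describe the looser unadjusted threshold. For scale, Pu, with an unadjusted edgeR p of 0.0339 in row_RNAi1, ranked 2640th of 9442 genes by p. Summed hemocyte, muscle, glial and neuronal levels were 143.7 to 150.0, 2286 to 2365, 759.7 to 762.4 and 408.7 to 409.4 CPM in row_RNAi1. In row_RNAi2 they were 85.6 to 97.1, 2000 to 2217, 793 to 928 and 412.6 to 478.6 CPM, and in controls 105.4 to 118.3, 1906 to 2046, 967 to 982 and 452.5 to 473.2 CPM. Malpighian tubule genes, of which Uro was at 0 in row_RNAi1 and controls, lay between 34.6 and 43.2 CPM in all groups. Testis genes were at 0 outside row_RNAi2, where their sum reached 1.87 CPM. In row_RNAi2 they were at 0 in replicate 1. Replicates 2 and 3 had 6 and 13 counts of Mst84Da, 0 and 4 of Mst84Dc, and 5 and 4 of dj. The part of these tissues in the values of v, ry and CG6950 was not tested.

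For each of the 9 genes, the genes most like it were sought by Pearson's r of log2 CPM over the 8 libraries among 7437 genes with a mean of at least 5 CPM. These values describe a likeness that the 3 groups share by design, and with so many candidates high values arise readily. The closest to se were CG11211 (0.996) and pncr013:4 (0.995), to bw CG32017 (0.991) and Ssk (0.989), and to pr axo (0.992) and Ilp2 (0.986). For v they were CG31326 (0.987) and CG4962 (0.977), for ry CG14795 (0.985) and LManII (0.982), and for Pu CG15236 (0.981) and CG32544 (0.949). The closest to st were wtrw (0.970) and sll (0.963), to kar CG15784 (0.962) and Vps60 (0.950), and to w Cyp309a2 (0.957) and AANATL2 (0.956). None of the 9 pigment genes was among the closest to another. With so few matches kept from 7437 candidates, this does not measure how far the pigment genes varied together.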

How the data were processed

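Messenger RNA was measured in fly heads by 3′ RNA-seq (RNAtag-Seq, per the labels' protocols) in 8 libraries of 3 genotypes. The authors deposited 1 table of raw counts per gene symbol (13781 symbols), and all 8 columns matched a sample by name. The submitters' processing notes name STAR and the build dm3, with no versions; the sources used here name no counting program or annotation and do not say whether strand or molecular identifiers were used. Gene neighbours, overlaps and current names come from RefSeq and Ensembl tables of the later Release 6, so no coordinates are given.

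Counts were fitted in R 4.3.3 with edgeR 4.0.16 (TMM factors 0.921 to 1.09, filterByExpr, 3 groups in 1 model of all 8 libraries, quasi-likelihood F tests, Benjamini-Hochberg adjustment over 9442 genes). CPM used the TMM-scaled totals of the tested genes. SE came from the F statistic. The test was checked on simulated counts. Alternatives were DESeq2 1.42.0, limma 3.58.1 (voom), other scaling, other filters, fewer groups, a replicate block and leaving out each library. The members and gene lists were chosen with earlier results of these data known, and are described by counts and medians with no set test. Genes named were the members, listed pathway genes called in a line or with the smallest p, and the genes most like each member; the neighbours of the members were added after the values were seen. Of 34 listed symbols of related pathways, 30 separate genes were found (some under another symbol). Intervals and count limits cover counting error or replicate spread only. The labels state no blocked design, so same-numbered libraries were not treated as pairs. Their deviations from the group means gave r from -0.13 to 0.0563. With so few libraries per group, that check cannot exclude pairing.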

Additional observations from a re-analysis of the deposited data

Results flagged for a closer look

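The 2 RNAi lines differed from each other, in edgeR's direct test with Benjamini-Hochberg adjustment, for 6 of the 9 tested eye pigment genes, beside 11.3% of all genes. The log2 difference (row_RNAi2 minus row_RNAi1) was 1.39 for w (SE 0.17, edgeR adjusted p = 2.86e-05), 0.72 for st (SE 0.15, edgeR adjusted p = 0.00384), 0.67 for bw (SE 0.11, edgeR adjusted p = 0.000283), 0.63 for pr (SE 0.08, edgeR adjusted p = 4.66e-05) and 0.66 for se (SE 0.12, edgeR adjusted p = 0.000924). It was -0.61 for v (SE 0.09, edgeR adjusted p = 0.000143). The libraries of the lines did not overlap for 8 of the 9, these 6 and the uncalled Pu and kar among them, against 39% of all genes. The gene se was lower than control in both lines, by different amounts. The libraries of v lay on opposite sides of the controls in the 2 lines, and v was called in row_RNAi1 only. Those of w lay above the controls in row_RNAi2, where w was called. In row_RNAi1 w was not called, and its higher library (5.78 CPM) lay only just under the lowest control (5.79 CPM).

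Among the further genes, the difference between the lines was 0.67 for Rab32, -0.85 for CG6950, -0.53 for DhpD, -2.27 for CG13646 and -2.31 for y, all on the log2 scale. The DhpD difference was not called without row_RNAi1 replicate 1 (edgeR adjusted p = 0.0942). The pigment cell genes rdhB and Pdh differed by 1.45 and 0.60.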

How the results depend on the processing

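The fold changes of the 9 tested pigment genes in 4 comparisons were recomputed under each alternative. Of 540 values, 512 kept their direction and call, 15 lost the call, 7 gained it and 6 changed sign. The calls of se in each comparison, of bw, pr, v and ry in row_RNAi1 and of w in row_RNAi2 were kept in every alternative run. The changes of sign were all in row_RNAi2 and in genes near 0: pr (0.0034 without control replicate 3), Pu (-0.065 without control replicate 3, -0.067 without row_RNAi2 replicate 1) and kar (0.0017 without control replicate 3, 0.014 without row_RNAi2 replicate 1, 0.00046 without row_RNAi2 replicate 3). Leaving out 1 library gave -0.091 to 0.0034 for pr, -0.067 to 0.091 for Pu and -0.13 to 0.014 for kar. With all knockdown libraries as 1 group, 2 pigment genes and 834 of all genes were called, against 5 and 1680 for the mean of both lines. The genes bw, pr and w then lost their calls. Leaving out 1 library at a time gave 5 to 6 called pigment genes in row_RNAi1, 2 to 3 in row_RNAi2, 4 to 5 for the mean and 5 to 7 between lines. Over all genes it gave 1226 to 2150, 786 to 932, 1312 to 1762 and 555 to 1110, with the lowest row_RNAi1 counts without row_RNAi1 replicate 1 (1226) or 2 (1275) and 555 between lines without either of them; a line left with 1 library is assumed to vary like the other groups. With the replicate block, row_RNAi1 had 7 called pigment genes (19.2% of all genes), row_RNAi2 2 (9.94%), the mean 4 (16.5%) and the direct comparison of lines 7 (10.5%); Pu gained and w lost a call, and 1 of 3 controls correlated best with its own number in row_RNAi2. Low counts limit cn, cd, CG13646 and y.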
